A study of Mus musculus with 3 samples.

Results

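The 10 genes described here form the core transcriptional loop of the circadian clock and were taken as a fixed list from 18545 genes measured in single retinal cells. Of these, 3 were activators (Arntl, Clock, Npas2) and 7 were repressors (Per1, Per2, Per3, Cry1, Nr1d1, Nr1d2, Ciart), and all 10 were listed in the matrix. The cells came from mice aged 8 weeks which, per the labels, were all reared in the dark, WT included; for its dark-housed rd10 mice the study's text names dim red husbandry light and short exposures at imaging and electroretinography, and it is not stated which of these the sampled mice had. The wild-type group (WT) was C57BL/6J mice of both sexes on the base chow. The rd10 groups were female C57BL/6J mice carrying the rd10 allele, a point mutation in Pde6b, the catalytic subunit of rod phosphodiesterase, under which rods degenerate. The rd10-vehicle group ate the base chow, and the rd10-TMB group ate chow with tamsulosin, metoprolol and bromocriptine, which act on adrenergic and dopamine receptors; levels under vehicle and under TMB below refer to these rd10 groups. Per the labels each group was 1 retina from each of 4 mice, pooled into 1 library, while the study's methods count 1 mouse fewer for each rd10 group. The time of day at which the retinas were taken is not given in the sources used here. With 1 library per group, a difference between groups, between libraries and between times of collection cannot be told apart, and no test between groups was possible.

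In the mammalian clock, the protein made from Arntl (BMAL1) pairs with CLOCK, or with the related protein NPAS2, and the pair switches on genes that carry an E-box in their promoters. Among those genes are the repressors of the same loop: PER and CRY proteins block the pair, CIART (also called CHRONO) binds BMAL1 and represses it, and the nuclear receptors REV-ERB alpha and beta (Nr1d1, Nr1d2) bind RORE sites and hold Arntl transcription down. Activator and repressor transcripts therefore tend to peak at different times of day, and the retina holds such clocks in neurons and in Müller glia (MG).

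The promoters of 9 of the 10 genes were found in the RefSeq promoter table (GRCm38.p6, the assembly known as mm10), each as 250 bases before and 50 bases after the annotated start of transcription. Per2 had no entry. The table gives 13 windows for these genes, since Arntl and Per1 have 2 annotated starts each and Clock has 3. The 5 windows below each hold at least 2 matches of the motifs searched, which are letters known from clock-controlled promoters. The 2 matches in Arntl are 1 site, since the shorter motif lies within the longer. The windows of Nr1d1, Nr1d2 and, at 1 start, Clock held 1 match each. For Arntl and Per1 the window with motifs is printed, and the window at the other start of each held 0 of the motifs searched. They are printed 5′ to 3′ on the strand of the gene, with the motifs in capitals. The windows are Ciart at chr3:95882179-95882478 (minus strand), Cry1 at chr10:85185005-85185304 (minus), Per1 at chr11:69098699-69098998 (plus), Per3 at chr4:151044616-151044915 (minus) and Arntl at chr7:113207261-113207560 (plus).
Ciart: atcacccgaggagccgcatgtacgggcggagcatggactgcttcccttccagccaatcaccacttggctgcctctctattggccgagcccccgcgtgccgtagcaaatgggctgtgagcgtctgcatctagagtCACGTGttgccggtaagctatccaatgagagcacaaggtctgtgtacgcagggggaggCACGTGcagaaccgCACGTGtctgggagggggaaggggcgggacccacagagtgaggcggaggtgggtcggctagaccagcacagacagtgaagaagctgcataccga
Cry1: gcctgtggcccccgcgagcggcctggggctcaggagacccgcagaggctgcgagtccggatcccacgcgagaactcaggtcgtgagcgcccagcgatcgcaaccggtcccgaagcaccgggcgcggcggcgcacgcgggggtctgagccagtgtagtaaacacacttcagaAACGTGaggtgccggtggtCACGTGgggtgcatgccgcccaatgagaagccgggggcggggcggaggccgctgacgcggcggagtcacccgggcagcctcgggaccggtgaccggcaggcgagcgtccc
Per1: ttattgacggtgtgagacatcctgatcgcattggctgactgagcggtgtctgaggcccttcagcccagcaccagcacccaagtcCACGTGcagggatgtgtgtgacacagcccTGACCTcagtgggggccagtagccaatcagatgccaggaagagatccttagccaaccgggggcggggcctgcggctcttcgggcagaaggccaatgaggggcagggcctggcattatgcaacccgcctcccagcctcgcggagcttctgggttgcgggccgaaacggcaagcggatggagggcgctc
Per3: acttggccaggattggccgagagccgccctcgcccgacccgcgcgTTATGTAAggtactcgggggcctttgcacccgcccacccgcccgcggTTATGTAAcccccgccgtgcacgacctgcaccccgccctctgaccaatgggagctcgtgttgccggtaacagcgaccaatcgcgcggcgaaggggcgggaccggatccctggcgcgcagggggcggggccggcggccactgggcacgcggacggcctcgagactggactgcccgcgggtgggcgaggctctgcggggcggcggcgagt
Arntl: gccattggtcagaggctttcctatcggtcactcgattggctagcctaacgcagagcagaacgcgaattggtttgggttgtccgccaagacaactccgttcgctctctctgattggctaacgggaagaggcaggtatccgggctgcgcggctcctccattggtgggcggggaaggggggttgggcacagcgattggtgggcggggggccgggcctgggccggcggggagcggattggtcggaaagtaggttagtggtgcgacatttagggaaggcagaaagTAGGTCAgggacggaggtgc
The window of Ciart held 3 copies of the E-box CACGTG, which started 116, 58 and 44 bases before the start of transcription. Cry1 held 1 E-box at 60 bases before the start, with the variant CACGTT on the other strand (printed AACGTG) at 79 bases. Per1 held an E-box at 166 bases and, on the other strand, the RORE half-site AGGTCA (printed TGACCT) at 137 bases before the start. The D-box TTATGTAA, bound by DBP, TEF, HLF and NFIL3, occurred as 2 copies in Per3, at 205 and 158 bases before the start. The longer half-site TAGGTCA, read by REV-ERB and ROR receptors, was in Arntl at 31 bases after the start, and the shorter AGGTCA overlaps it there. Motifs were searched as exact letters on both strands.

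Across all 32851 windows of the table, CACGTG was present in 7.15%, CACGTT in 4.68%, TAGGTCA in 2.61%, AGGTCA in 16.3%, TTATGTAA in 0.938% and the cyclic AMP element TGACGTCA in 1.79%. Of the 13 windows of the clock genes, 3 held CACGTG (Per1, Cry1, Ciart), 2 held CACGTT (Cry1, Nr1d1), 1 held TAGGTCA (Arntl), 4 held AGGTCA (Arntl, Clock, Per1, Nr1d2), 1 held TTATGTAA (Per3) and 0 held TGACGTCA. Of the 3 windows of Clock, 1 held a motif. A match describes letters in this window and does not show that a factor binds there.

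**Figure D1:**
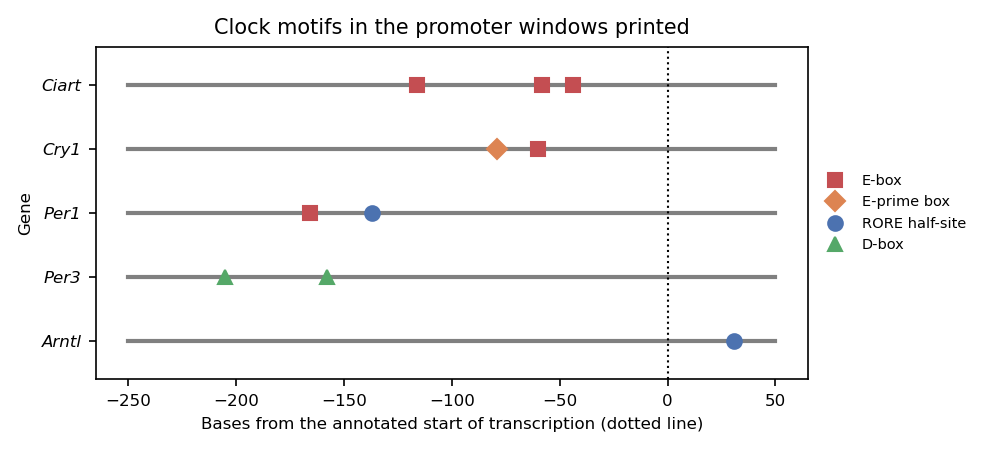
Positions of the motifs in the 5 promoter windows printed above, in bases from the annotated start of transcription (dotted line), with 1 row per gene and 1 symbol per motif. The 3 E-boxes of Ciart lie within 116 bases before the start, the D-boxes of Per3 lie farther upstream, and the only motif after the start is that of Arntl.

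The libraries held 4478 cells and 18882951 UMIs (unique molecular identifiers, counted transcript molecules) in WT, 5952 cells and 37002532 UMIs in rd10-vehicle, and 4812 cells and 29192530 UMIs in rd10-TMB. UMIs were summed per cell class and library and given as CPM, which scales them to a fixed total per class. Of the 21 deposited clusters, 10 classes had at least 50 cells in every library. Classes were named from marker genes, and clusters 6 and 10, which carried bipolar cell markers without a clear subtype, kept their numbers. Their make-up differed between libraries: the 13 amacrine markers summed to 2837, 233 and 191 CPM in WT, rd10-vehicle and rd10-TMB in cluster 6, and to 1891, 351 and 925 CPM in cluster 10. The largest class, cluster 0, carried 14 of 14 MG markers and held 530 WT, 2492 vehicle and 1748 TMB cells. Its median depth was 6300, 8594 and 9455 UMIs per cell in these libraries. Barcodes shared between libraries touched 50 cells in all. A gene with at least 20 UMIs over a pair of libraries was tested, and it was called higher or lower where its CPM ratio passed 1.5-fold and the exact 95% interval of the ratio left out 1. All intervals cover counting error only, not differences between mice.

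In MG-like cells the activators were highest in rd10-vehicle, and most of the repressors were lowest there. Arntl (chr7:113207465-113314126), the BMAL1 gene, was at 21.4 CPM in WT, 39.7 CPM under vehicle and 23.2 CPM under TMB. The vehicle library thus stood alone, with a log2 ratio to WT of 0.89 (95% interval 0.54 to 1.26), while rd10-TMB lay -0.78 from rd10-vehicle (-0.95 to -0.60) and 0.12 from WT (-0.25 to 0.50). These levels rested on 71, 882 and 389 UMIs, with no cell holding more than 7 of them. Clock (chr5:76209868-76304792), which encodes the partner of BMAL1, was at 58.7 CPM in WT, 80.5 CPM under vehicle and 51.9 CPM under TMB. It was ordered like Arntl with a smaller span: rd10-vehicle was 0.45 above WT (0.24 to 0.67), short of the 1.5-fold limit, and rd10-TMB was at -0.63 from rd10-vehicle (-0.75 to -0.51), past it. Npas2 (chr1:39193731-39363236), whose product can stand in for CLOCK, had 0 UMIs in WT, 38 under vehicle and 12 under TMB. Against a floor of 3 counts in WT the vehicle level was at least 1.89-fold higher, and TMB over vehicle stood at a log2 ratio of -1.26 (-2.33 to -0.29).

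The period genes did not move as a block. Per2 (chr1:91415982-91459324), whose protein carries CRY into the repressor complex, was at 15.1 CPM in WT, 5.23 CPM under vehicle and 14.7 CPM under TMB. Its level in rd10-vehicle was low against both other libraries, with log2 ratios of -1.53 to WT (-2.02 to -1.02) and, for rd10-TMB over rd10-vehicle, of 1.49 (1.16 to 1.82), and its levels in rd10-TMB and WT lay within counting error of each other (-0.04, -0.48 to 0.43). Per3 (chr4:151003652-151044665), the third period gene, was at 165 CPM in WT, 83.0 CPM under vehicle and 126 CPM under TMB. It was lower in rd10-vehicle by a log2 ratio of -0.99 (-1.13 to -0.85), and in rd10-TMB over rd10-vehicle it was at 0.60 (0.51 to 0.69), a 1.51-fold difference just past the limit. Per1 (chr11:69095217-69109960), a period gene that also responds quickly to light and hormones, was at 54.8 CPM in WT, 51.1 CPM under vehicle and 57.6 CPM under TMB. It was the most even of the period genes, with log2 ratios of -0.10 (-0.33 to 0.13) and 0.17 (0.05 to 0.30) for the same pairs. Cry1 (chr10:85131700-85185064), a cryptochrome and a strong inhibitor of the BMAL1 pair, was at 28.3 CPM in WT, 15.2 CPM under vehicle and 20.6 CPM under TMB. Its deficit in rd10-vehicle was -0.90 (-1.23 to -0.55), and rd10-TMB over rd10-vehicle was 0.44 (0.22 to 0.66), under the limit.

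The REV-ERB genes, which link the loop back to Arntl, differed from each other. Nr1d2 (chr14:18204054-18239127) was at 105 CPM in WT, 59.5 CPM under vehicle and 78.0 CPM under TMB. It followed the pattern of Per3 and Cry1, with log2 ratios of -0.82 (-0.99 to -0.64) for rd10-vehicle over WT and 0.39 (0.28 to 0.50) for rd10-TMB over rd10-vehicle. Nr1d1 (chr11:98767932-98775333) was at 239.8 CPM in WT, 285 CPM under vehicle and 273 CPM under TMB. It was the only repressor with a higher level in rd10-vehicle than in WT in MG-like cells, at 0.25 (0.14 to 0.36), and rd10-TMB over rd10-vehicle was -0.06 (-0.12 to -0.01). The highest count in a single cell was 10 UMIs in WT, 36 under vehicle and 43 under TMB, the highest of the 10 genes in the rd10 libraries.

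Ciart (chr3:95878503-95882251), the repressor whose window above held 3 E-boxes, had the widest span of the 10 genes in this class. It was at 149.7 CPM in WT, 20.8 CPM under vehicle and 69.2 CPM under TMB. The log2 ratio was -2.85 (-3.03 to -2.66) for vehicle over WT and 1.73 (1.58 to 1.89) for TMB over vehicle, and TMB stayed below WT at -1.11 (-1.27 to -0.96). The 3 libraries were thus clear of one another. The UMIs came from many cells (497 UMIs in 218 WT cells, 462 in 316 vehicle cells, 1161 in 607 TMB cells, at most 12 in any cell). In cone-like cells of the same libraries Ciart was at 0.70 to 1.84 CPM.

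**Figure D2:**
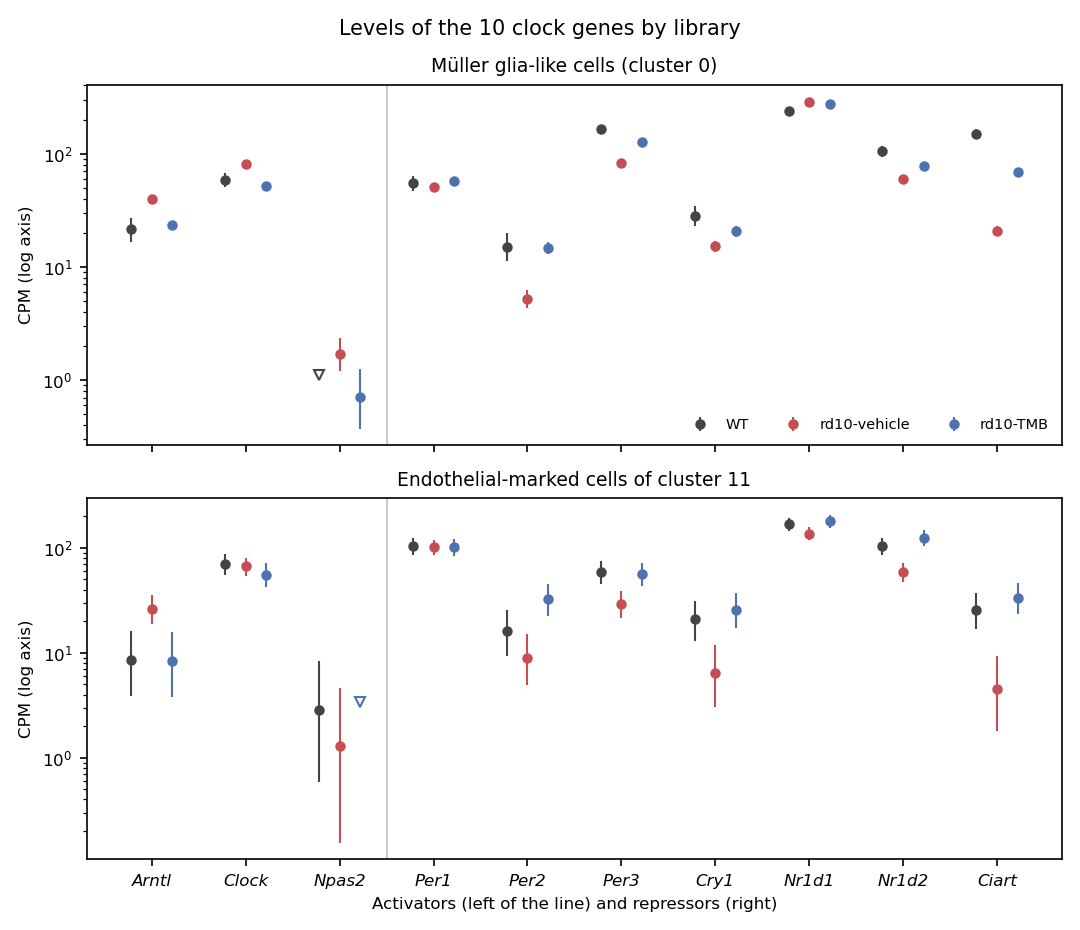
Level of each of the 10 genes in CPM (log axis) in MG-like cells and in endothelial-marked cells of cluster 11, with 1 point per library and bars for exact 95% counting intervals. In MG-like cells Arntl and Clock are highest in rd10-vehicle, whereas Ciart, Per2, Per3, Cry1 and Nr1d2 are lowest there.

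Counted over the 10 genes in MG-like cells, rd10-vehicle over WT had 2 called higher, Arntl and Npas2, where 7.06% of all 13871 genes tested were called higher, and 5 called lower, Per2, Per3, Cry1, Nr1d2 and Ciart, where 7.35% were called lower. Npas2, with 0 UMIs in WT, passed the filter through the vehicle library alone, and of the 9 genes with UMIs in both libraries Arntl was the 1 called higher. In rd10-TMB over rd10-vehicle, 3 were called higher (Per2, Per3, Ciart), where 0.954% of 14464 genes were, and 3 were called lower, which are all of the activators, where 2.15% were. The call of Npas2, on 12 and 38 UMIs, did not keep its direction when cells were thinned to 1000 UMIs (0.52, -3.27 to 4.31). These comparisons share the vehicle library, so a value that is extreme there enters both with opposite sign. In rd10-TMB over WT, which does not use that library, 0 of 9 tested were called higher, where 5.63% of 13473 genes were, and Ciart alone was called lower, where 6.9% were.

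The mean log2 ratio of the 7 repressors was -0.99 (-1.09 to -0.89) for rd10-vehicle over WT, 0.68 (0.61 to 0.75) for rd10-TMB over rd10-vehicle and -0.31 (-0.40 to -0.22) for rd10-TMB over WT. The mean of the activators was 0.67 (0.47 to 0.88), -0.89 (-1.21 to -0.57) and -0.03 (-0.24 to 0.18) for the same pairs, Npas2 being left out of the pairs with WT. Only the second activator mean thus includes Npas2, which rested on 12 UMIs in rd10-TMB and 38 in rd10-vehicle. Its ratio there was lower than those of Arntl and Clock. The median of all genes tested was -0.04, -0.02 and -0.06. Without Ciart the repressor means were -0.68, 0.50 and -0.18, so Ciart alone supplied part of each mean but not its sign. With each cell thinned to 1000 UMIs they were -0.82, 0.45 and -0.37. As a share of the UMIs of all 10 genes, activators were 9.56% in WT (exact binomial 95% interval 8.50 to 10.7), 19.0% under vehicle (18.4 to 19.6) and 10.6% under TMB (10.1 to 11.2).

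**Figure D3:**
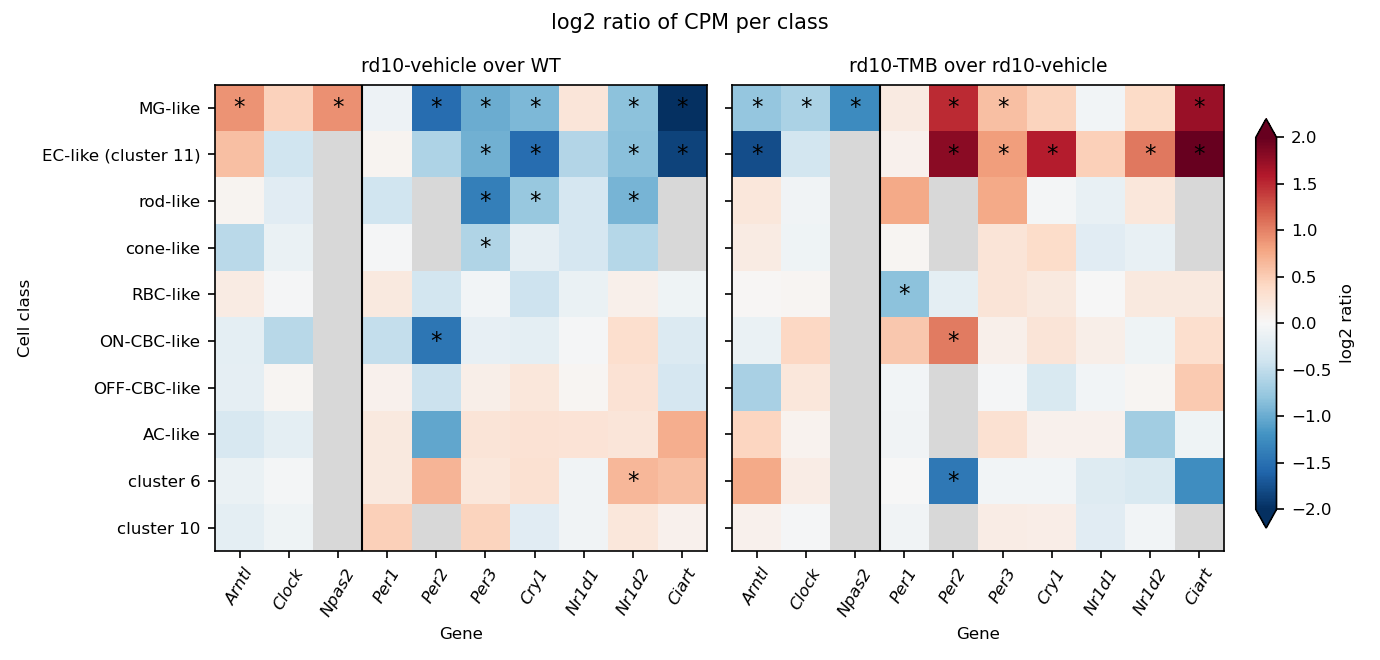
The log2 ratio of CPM for each of the 10 genes (columns) in each cell class (rows), with asterisks for called genes and grey for pairs under 20 UMIs; Npas2 in MG-like cells against WT is drawn at its bound. The MG-like and EC-like rows hold most of the asterisks in both comparisons.

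Müller glia of degenerating retinas become reactive, and Lcn2, an acute-phase gene, had a UMI in 9 WT, 653 vehicle and 300 TMB cells of this class. Among cells without an Lcn2 UMI, Ciart was at 27.3 CPM under vehicle and 82.5 CPM under TMB, a log2 ratio of 1.60 (1.43 to 1.77). Among cells with one, it was lower in both libraries, at 8.05 and 27.6 CPM, and the ratio was 1.78 (1.31 to 2.25). Arntl in rd10-TMB over rd10-vehicle was at -0.70 (-0.91 to -0.49) in cells without Lcn2 and -0.87 (-1.21 to -0.55) in cells with it. Per3 was at 94.6 and 132 CPM in cells without Lcn2 and at 60.1 and 106 CPM in cells with it. Of the 10 genes, 8 had log2 ratios between the rd10 libraries of equal sign in both sets of cells. Nr1d1 did not, at -0.14 (-0.21 to -0.08) in cells without Lcn2 and 0.14 (0.03 to 0.24) in cells with it, and neither did Npas2, at -2.54 (-4.52 to -1.02) on 4 and 27 UMIs and 0.42 (-1.10 to 1.87) on 8 and 11. Within each rd10 library the Lcn2 cells had less Ciart and Per3.

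The WT pool held both sexes and the rd10 pools females only. In the 245 WT MG-like cells that had Xist without any Y-linked UMI, Ciart was at 163 CPM (144 to 184), Per3 at 188 CPM (168 to 211) and Arntl at 22.8 CPM (16.0 to 31.4). In the 157 with Y-linked UMIs but without Xist, Ciart was at 148 CPM (126 to 174), Per3 at 153 CPM (130 to 179) and Arntl at 19.3 CPM (11.8 to 29.8). Either set lay on the same side of rd10-vehicle for all 3 genes. The 11 rod markers summed to 953, 1328 and 1384 CPM in the MG-like cells of WT, rd10-vehicle and rd10-TMB, and the 10 cone markers to 118, 280 and 322 CPM, with 1 cone marker at 0 in WT. Both lists were thus higher in the rd10 libraries and close between them, and their part in the clock gene values was not tested. The 8 astrocyte markers summed to 892, 1266 and 1191 CPM.

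Cluster 11 carried 10 of 11 endothelial markers (EC-like), and also 11 of 11 pericyte markers at 2-fold or more over the other cells. It held 137 WT, 156 vehicle and 100 TMB cells. Part of it went against its name: 46 WT cells, 7 vehicle cells and 8 TMB cells had more bipolar than endothelial marker UMIs, so levels are given mainly for endothelial-marked cells, and calls and means for both. These were the cells with at least 10 endothelial and fewer than 5 bipolar marker UMIs, a limit chosen after the data were seen, and they numbered 89, 141 and 85. In them the endothelial markers summed to 15315, 14584 and 14057 CPM and the ON cone bipolar markers to 24.6, 28.8 and 28.6 CPM, against 1094, 135 and 155 CPM in the whole cluster. Other lists still differed between the libraries in these cells: the rod markers summed to 575, 235 and 408 CPM, lowest in rd10-vehicle, the MG markers to 2414, 2176 and 2597 CPM, also lowest in rd10-vehicle, and the pericyte markers to 7602, 9384 and 9503 CPM, lowest in WT. Their part in the values that follow was not tested.

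Arntl in the whole cluster was at 17.9 CPM in WT, 27.2 CPM under vehicle and 7.95 CPM under TMB. In endothelial-marked cells it was at 8.50, 26.2 and 8.29 CPM, with log2 ratios of 1.63 (0.56 to 2.85) for rd10-vehicle over WT and -1.66 (-2.89 to -0.60) for rd10-TMB over rd10-vehicle. The vehicle library was again the high one, on 9, 41 and 9 UMIs. Clock was at 69.9, 66.5 and 55.3 CPM in endothelial-marked cells, with no interval of its ratios clear of 0 there, and Npas2 had at most 5 UMIs in any library of the cluster. Ciart in the whole cluster was at 20.1 CPM in WT, 5.54 CPM under vehicle and 33.4 CPM under TMB, and in endothelial-marked cells at 25.5, 4.48 and 33.2 CPM. Its ratios in the latter were -2.51 (-3.95 to -1.27) and 2.89 (1.70 to 4.30), on 27, 7 and 36 UMIs. As in MG-like cells, Ciart was lowest in rd10-vehicle, and here rd10-TMB was not below WT.

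Of the other repressors in the endothelial-marked cells, Per3, Cry1 and Nr1d2 were called lower in rd10-vehicle than in WT. Per2, which was not called in that pair (-0.84, -1.97 to 0.27), was at 16.1, 8.96 and 32.3 CPM in WT, rd10-vehicle and rd10-TMB. Per3 was at 58.6, 29.4 and 56.2 CPM, and Cry1 at 20.8, 6.40 and 25.8 CPM. Nr1d2 was at 104, 58.9 and 124 CPM in the same order. Nr1d1 was at 168, 137 and 181 CPM, and Per1 was nearly flat at 104, 101 and 101 CPM. Neither was called in either pair.

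In the whole cluster, rd10-vehicle over WT had 0 of 9 tested called higher, where 5.45% of all genes were, and 4 called lower (Per3, Cry1, Nr1d2, Ciart), where 11.6% were. In rd10-TMB over rd10-vehicle, 5 were called higher (Per2, Per3, Cry1, Nr1d2, Ciart), where 1.97% of all genes were, and 1 lower (Arntl), where 2.57% were. In rd10-TMB over WT, 2 were called higher (Per2, Ciart), where 4.9% were, and 2 lower (Arntl, Clock), where 11.2% were. In endothelial-marked cells 1 of 9 tested was called higher in rd10-vehicle over WT, Arntl, where 3.62% of all genes were, and the same 4 were called lower, where 4.04% were. For rd10-TMB over rd10-vehicle the same 5 were called higher and the same 1 lower, where 2% and 2.98% of all genes were. For rd10-TMB over WT, Per2 was called higher, where 3.01% were, and 0 of 8 tested were called lower, where 4.1% were. The ratio of rd10-TMB to WT in them was -0.04 for Arntl (-1.54 to 1.47), -0.34 for Clock (-0.85 to 0.17), 0.38 for Ciart (-0.38 to 1.16) and 1.01 for Per2 (0.13 to 1.93). The mean of the repressors over the whole cluster was -0.90 (-1.16 to -0.64) for rd10-vehicle over WT and 1.20 (0.95 to 1.45) for rd10-TMB over rd10-vehicle, and in endothelial-marked cells it was -1.03 (-1.33 to -0.73) and 1.31 (1.03 to 1.59). The mean of Arntl and Clock was 0.10 (-0.29 to 0.50) and -1.07 (-1.60 to -0.53) over the whole cluster, and 0.78 (0.21 to 1.34) and -0.96 (-1.53 to -0.40) in endothelial-marked cells, so its excess in rd10-vehicle over WT was clear of 0 in the subset alone. With each cell thinned to 1000 UMIs, 3 repressors kept 20 UMIs, and their means were -0.21 (-0.77 to 0.35) and 0.23 (-0.38 to 0.84), which was too shallow to place the sign. The activator share was 17.0% (14.6 to 19.6), 21.3% (18.5 to 24.3) and 9.40% (7.46 to 11.7) in WT, rd10-vehicle and rd10-TMB, and in endothelial-marked cells 14.1%, 21.4% and 10.3%.

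**Figure D4:**
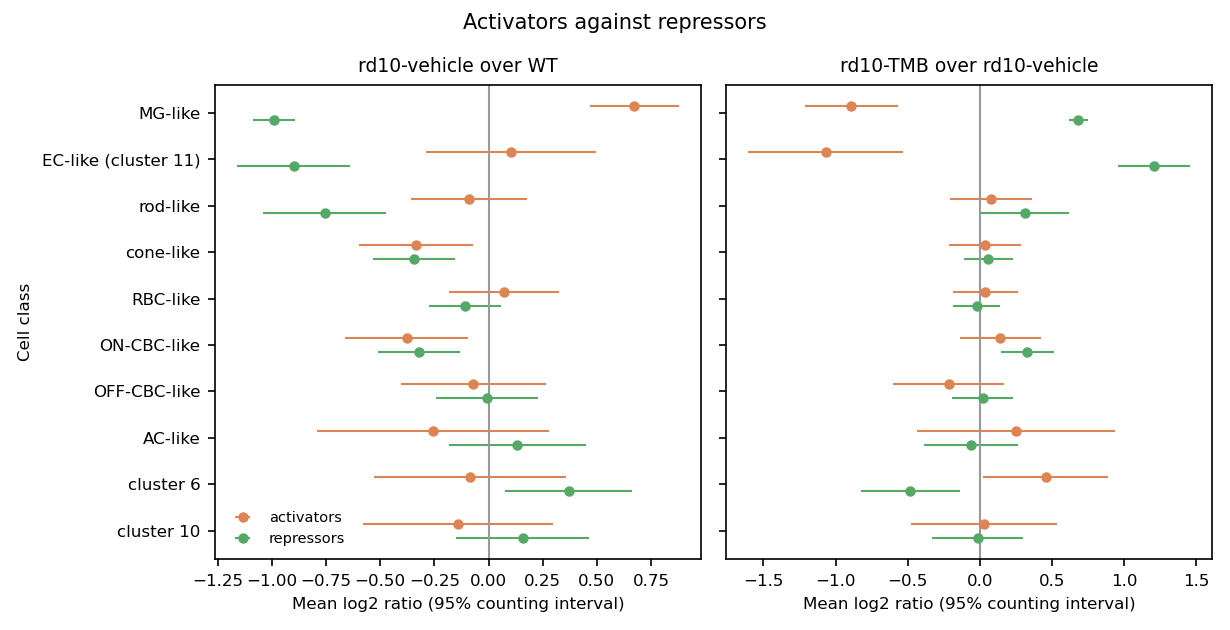
Mean log2 ratio of the activators and of the repressors in each class (rows) for rd10-vehicle over WT and rd10-TMB over rd10-vehicle, with 95% counting intervals. In MG-like cells the repressor mean is -0.99 against 0.67 for the activators in the first comparison and 0.68 against -0.89 in the second, and EC-like cells (the whole cluster) have -0.90 against 0.10 in the first and 1.20 against -1.07 in the second. The MG-like activator mean includes Npas2 in the second comparison alone.

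In rod-like cells, the class that degenerates in rd10, 3 of 7 tested genes were called for rd10-vehicle over WT, all lower, where 11.1% of all genes were called in either direction. Per3 was at 62.8 CPM in WT, 24.4 CPM under vehicle and 41.1 CPM under TMB, a log2 ratio of -1.36 (-2.11 to -0.68) for vehicle over WT. Nr1d2 was at 104, 54.6 and 64.1 CPM (-0.93, -1.42 to -0.46), and Cry1 at 45.0, 26.7 and 26.1 CPM (-0.75, -1.49 to -0.07). Arntl, by contrast, was at 75.1, 77.8 and 91.0 CPM, with a ratio of 0.05 (-0.39 to 0.49), level with WT where these repressors were lower. For rd10-TMB over rd10-vehicle 0 of 7 were called, where 4.78% were, and activators minus repressors was -0.23 (-0.65 to 0.19). These cells were shallow, with 333 UMIs of the 10 genes in the vehicle library. Markers of other types moved with these values: in rod-like cells the cone markers summed to 398, 1075 and 643 CPM and the MG markers to 265, 669 and 575 CPM in WT, rd10-vehicle and rd10-TMB. Their part was not tested.

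Cone-like cells had 1 call of 7 tested in rd10-vehicle over WT, where 7.07% of all genes were called: Per3, at 109 CPM in WT, 72.1 CPM under vehicle and 86.5 CPM under TMB (-0.60, -0.92 to -0.29). In these cells the MG markers summed to 140, 464 and 437 CPM and the cone markers to 46520, 42738 and 44101 CPM in WT, rd10-vehicle and rd10-TMB, and their part was not tested. Arntl was at 52.6, 36.3 and 40.5 CPM, lower in the vehicle library than in WT rather than higher, at -0.54 (-0.99 to -0.08). For rd10-TMB over rd10-vehicle 0 were called, where 3.44% were, and activators minus repressors was -0.02 (-0.32 to 0.28). The balance of the loop in cones was thus level between the rd10 libraries to within that interval.

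The bipolar classes had few calls. In rod bipolar (RBC-like) cells 0 of 9 tested were called for rd10-vehicle over WT, where 5.68% of all genes were, and for rd10-TMB over rd10-vehicle 1 was, Per1, where 3.09% were. Per1 there was at 24.9 CPM in WT, 28.7 CPM under vehicle and 16.3 CPM under TMB, a ratio of -0.81 (-1.39 to -0.26) for TMB over vehicle. In ON cone bipolar (ON-CBC-like) cells Per2 was the 1 call in each pair, where 8.42% and 3.36% of all genes were called. It was at 43.8 CPM in WT, 16.1 CPM under vehicle and 33.0 CPM under TMB, with ratios of -1.44 (-2.23 to -0.70) and 1.03 (0.27 to 1.83), lowest in the vehicle library as in MG-like cells. The 11 rod markers had the same order in ON-CBC-like cells, at 2158, 1030 and 1641 CPM, and also in RBC-like cells, at 1191, 768 and 1091 CPM, and their part in these values was not tested. Arntl in the ON-CBC-like cells was at 62.4, 54.6 and 49.8 CPM and Ciart at 38.2, 31.5 and 39.8 CPM, and none of their ratios for these pairs was clear of 0. In OFF cone bipolar (OFF-CBC-like) cells 0 were called in either pair, where 4.49% and 3.6% were.

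Amacrine (AC-like) cells also had 0 calls in both pairs, where 9.86% and 5.36% of all genes were called, on 292 and 302 UMIs of the 10 genes in the rd10 libraries. Cluster 10 had 0 as well, where 14.1% and 7.36% were. Cluster 6 had 1 call in each pair, where 10.5% and 3.5% were. Nr1d2 was higher in rd10-vehicle than in WT (149.9 against 94.8 CPM, 0.66, 0.23 to 1.09), in the pair of libraries between which the amacrine markers of this cluster fell from 2837 to 233 CPM and the ON cone bipolar markers rose from 5356 to 7538 CPM. The part of these markers in that value was not tested. Per2 was lower under TMB than under vehicle on 6 and 16 UMIs (-1.43). Activators minus repressors for rd10-TMB over rd10-vehicle was 0.94 (0.38 to 1.49) in cluster 6, opposite in sign to the -1.57 (-1.90 to -1.24) of MG-like cells and the -2.27 (-2.86 to -1.68) of EC-like cells, but with each cell thinned to 1000 UMIs it was -0.25. In the other 7 neuronal and photoreceptor classes it ranged from -0.24 in OFF-CBC-like to 0.31 in AC-like cells, each with an interval that included 0. The difference between classes was not tested.

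**Figure D5:**
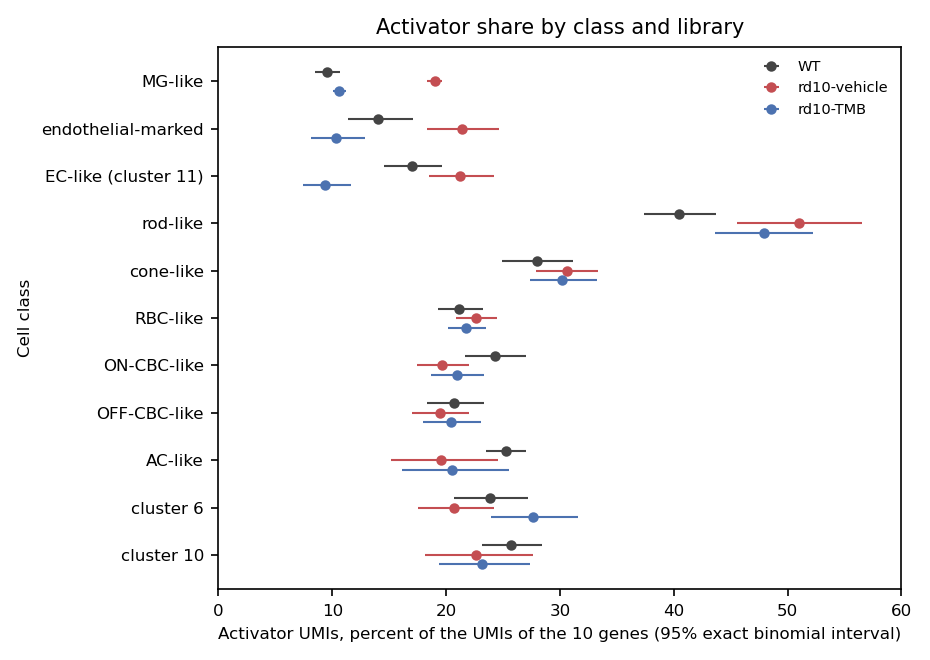
Activator UMIs as a percent of the UMIs of the 10 genes, by cell class (rows) and library (colours), with exact 95% binomial intervals. In MG-like cells rd10-vehicle (19.0%) stands clear of WT (9.56%) and rd10-TMB (10.6%), and rod-like cells have the highest shares, from 40.5% to 51.1%.

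The activator share was higher in rod-like and cone-like cells than in the bipolar, amacrine and unnamed classes of the same library. It was 40.5%, 51.1% and 48.0% in rod-like cells of WT, rd10-vehicle and rd10-TMB, and 28.0%, 30.6% and 30.2% in cone-like cells. In RBC-like cells it was 21.2%, 22.6% and 21.8%, in OFF-CBC-like cells 20.7%, 19.4% and 20.4%, and in ON-CBC-like cells 24.3%, 19.6% and 20.9%. The intervals of the 3 libraries overlapped within each of these bipolar classes and in cone-like cells, whereas in rod-like cells those of WT (37.4 to 43.7) and rd10-vehicle (45.5 to 56.5) did not. In the same order of libraries the share was 25.3%, 19.5% and 20.5% in AC-like cells. It was 23.8%, 20.7% and 27.6% in cluster 6, and 25.7%, 22.6% and 23.2% in cluster 10.

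Levels of a gene also differed between classes, beyond its span over the libraries in several cases. Arntl was highest in rod-like cells at 75.1 to 91.0 CPM, clear of ON-CBC-like cells at 49.8 to 62.4 CPM, while the ranges of its other neighbouring classes overlapped down to MG-like (21.4 to 39.7 CPM) and EC-like cells (7.95 to 27.2 CPM). Clock lay between 109.8 and 167 CPM over the bipolar, amacrine and unnamed classes, whose ranges overlapped, and had lower medians in rod-like, then cone-like, then EC-like and MG-like cells. Npas2 was low in every class. Its highest median was in OFF-CBC-like cells at 4.97 to 6.30 CPM, on 7, 5 and 5 UMIs in WT, rd10-vehicle and rd10-TMB. That is under the 20 UMIs asked of a pair, and the counting intervals overlapped those of other classes. By the median of the libraries the MG-like and EC-like classes were thus at the bottom of the order for both Arntl and Clock. For Arntl this place depended on the library. Under vehicle it was at 39.7 CPM in MG-like cells, above cone-like (36.3 CPM), RBC-like (35.9 CPM) and AC-like cells (26.5 CPM).

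Among the repressors, Per1 had the MG-like and EC-like classes at the top instead: EC-like cells were highest at 92.4 to 103 CPM, clear of MG-like cells at 51.1 to 57.6 CPM. Cluster 6 had the lowest median of Per1, at 17.9 to 20.4 CPM. The ranges of RBC-like (16.3 to 28.7 CPM) and rod-like cells (19.8 to 33.2 CPM) overlapped it. Nr1d1 was highest in OFF-CBC-like cells (313 to 324 CPM), clear of the next class, and lowest in rod-like cells (48.3 to 67.3 CPM). Per3 was highest in AC-like and RBC-like cells, whose ranges overlapped (165 to 244 and 180.4 to 216 CPM), and lowest in rod-like cells (24.4 to 62.8 CPM). Rod-like and cone-like cells were at the low end for most repressors, including Per2, which was at 3.12 to 4.91 CPM in cone-like cells. Cry1 was highest in AC-like, ON-CBC-like and cluster 10 cells and lowest in EC-like (7.76 to 23.1 CPM) and MG-like cells (15.2 to 28.3 CPM). Nr1d2 was at 140.5 to 176 CPM in OFF-CBC-like cells and its ranges overlapped between all neighbours in the order. Ciart had its highest median in MG-like cells, yet the 20.8 to 149.7 CPM it spanned there covered the ranges of AC-like, ON-CBC-like and OFF-CBC-like cells, so its place in the order depended on the library.

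Of 11 further loop genes, MG-like cells had 1 called higher and 4 called lower in rd10-vehicle over WT, where 7.06% and 7.35% of all genes were. In rd10-TMB over rd10-vehicle 2 were called higher, Dbp and Tef, and 0 lower, where 0.954% and 2.15% were. The lower ones in the first pair were the output factors Dbp, Tef and Hlf, which bind D-boxes such as those of Per3, and Bhlhe41, an E-box repressor. Dbp was at 587, 297 and 514 CPM in WT, rd10-vehicle and rd10-TMB, Tef at 124, 73.7 and 111 CPM, and Hlf at 463, 211 and 306 CPM. Their order over the libraries was that of Per3 and Nr1d2, and Nfil3, the repressor at D-boxes, was the 1 called higher, at 3.01, 7.07 and 6.56 CPM. The ROR genes, activators of Arntl, were not called: Rora was at 86.1, 72.5 and 75.5 CPM and Rorb at 792, 639 and 690 CPM. In endothelial-marked cells 5 of 7 tested were called lower in rd10-vehicle over WT (Cry2, Rorb, Dbp, Tef, Hlf), where 4.04% of all genes were, and 4 of 6 higher in rd10-TMB over rd10-vehicle (Cry2, Dbp, Tef, Hlf), where 2% were. Dbp was at 210, 106 and 314 CPM in them, and Rorb had 19, 7 and 7 UMIs. In the whole cluster 6 of 8 were called lower and 5 higher, where 11.6% and 1.97% of all genes were. Rorb there was at 63.7 CPM in WT and 6.10 CPM under vehicle and Bhlhe41 at 55.9 and 5.54 CPM, beside the bipolar marker sums given above, whose part was not tested. In endothelial-marked cells the 95% interval of the log2 ratio of Rorb for this pair ran from -3.50 to -0.69. In rod-like cells 3 of 9 tested were called lower in rd10-vehicle over WT, where 11.1% of all genes were called in either direction. They were Hlf at 69.5, 34.9 and 42.7 CPM in the same order of libraries, Tef at 51.2, 30.2 and 46.7 CPM and Cry2 at 31.7, 13.9 and 20.6 CPM, while Dbp, at 48.9, 39.5 and 36.4 CPM, was not called. In cluster 10, 4 of 9 tested (Dbp, Tef, Hlf, Rora) were called higher in rd10-vehicle over WT, where 14.1% of all genes were called, beside the lower amacrine markers given above, and 1 of 7, Tef (-0.61, -1.04 to -0.18), was called lower in rd10-TMB over rd10-vehicle, where 7.36% were. In RBC-like cells Dbp was at 608, 651 and 668 CPM, without the dip in the vehicle library seen in MG-like cells. The calls there for rd10-vehicle over WT were 2 of 9, Nfil3 (0.78, 0.16 to 1.42) and Bhlhe40 (0.92, 0.41 to 1.45), both higher, where 5.68% of all genes were called. In the same pair AC-like cells had Cry2 and Bhlhe40 called higher, of 11 tested, where 9.86% were, ON-CBC-like cells had Bhlhe40 called lower, of 10, where 8.42% were, and cone-like cells had Bhlhe41 called lower, of 8, where 7.07% were. For rd10-TMB over rd10-vehicle these 4 classes had 0 called.

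Clock protein modifiers, the kinases, ligases and partners that act on PER and CRY, had 1 of 11 tested called lower (Usp2, 121 to 80.4 CPM) in rd10-vehicle over WT in MG-like cells, a share close to the 7.35% of all genes, and 0 of 12 called in rd10-TMB over rd10-vehicle. Immediate-early genes, which cell dissociation can also raise, had 9 of 16 called higher in rd10-vehicle over WT, where 7.06% of all genes were, and 0 called in rd10-TMB over rd10-vehicle, where 0.954% were called higher and 2.15% lower. Egr3 was at 31.3, 164 and 151 CPM in WT, rd10-vehicle and rd10-TMB, and Fos at 4028, 6332 and 6136 CPM. The rd10 libraries were thus close to each other for these genes, where they differed for Ciart and Arntl. Glucocorticoid-responsive genes had 1 called higher and 3 lower of 7 tested in rd10-vehicle over WT, beside the same 7.06% and 7.35%, and 1 higher in rd10-TMB over rd10-vehicle, Tsc22d3, at 51.5, 17.0 and 31.9 CPM. Fkbp5, the other classic target, was at 46.7, 26.4 and 27.1 CPM, and of the cold-inducible genes Cirbp and Rbm3, 0 were called in either pair. The part of these programmes in the clock gene values was not tested.

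Over the 30 class-by-library points, with each class centred on its own mean, Ciart was most like Dbp (Pearson r 0.78), Fam133b (0.76), Mxi1 (0.71), Rere (0.69) and Tef (0.68) among 7341 genes that were not on the list. Arntl was most like Phf10 (0.65), Oxsr1 (0.63), Eif3m (0.62), Ppip5k1 (0.61) and Eif4g3 (0.60). Within the list, Ciart had r = 0.78 with Cry1, 0.69 with Per3, 0.59 with Nr1d2 and 0.57 with Per2, but 0.19 with Nr1d1 and 0.18 with Per1. Arntl had r = -0.77 with Ciart, -0.54 with Cry1, -0.52 with Nr1d2, -0.39 with Per2 and -0.33 with Per3. With Nr1d1 it had -0.23 and with Per1 -0.10. Among the activators Arntl had 0.45 with Clock and 0.54 with Npas2, which was low in every class. Points of one library share its preparation and depth, so the coefficients describe these 3 libraries and carry no test.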

How the data were processed

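The authors aligned reads of the 10x Genomics libraries to mm10 with Cell Ranger 6.0.1, removed doublets with Scrublet, kept cells with at least 500 genes and clustered them in Seurat 3.2.2 after Harmony integration. The deposited matrix holds natural log values, log(1 + UMI count scaled to 10000 per cell). UMI counts were recovered from it with the deposited total count of each cell, and 100% of 32620606 entries came out whole within 0.001. Cluster and library of each cell are the deposited ones.

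UMIs were summed per class and library (CPM of the class). Clusters were named from marker genes (at least 20 CPM and 2-fold over the other cells), needing 3 markers, with the type leading the top 10 genes; ON-CBC-like cells had none there and were named on 7 of 8 markers. Ratios have exact conditional binomial intervals, levels exact Poisson ones and shares exact Clopper-Pearson ones, all at 95% and for counting error only. With 1 library per group, cells were not treated as replicates and no test was made. The genes named are the 10 listed, the other clock genes, and the 5 genes most like Arntl and most like Ciart among those with a mean of at least 20 CPM, on log2(CPM + 1). The 10 genes and all lists were chosen with earlier results of these data known. Gene positions are from GENCODE vM21. The authors' differential expression results were not used. Ratios and calls were tested on simulated data. Python 3.11.15, NumPy 2.4.6, SciPy 1.17.1, pandas 2.3.3 and Matplotlib 3.10.9 were used. Alternatives were other scalings, filters on cells and genes, thinning to 1000 UMIs, subsets of cells and leaving out single genes.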

Additional observations from a re-analysis of the deposited data

Results flagged for a closer look

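The difference between rd10-TMB and rd10-vehicle ran in opposite directions in different cell classes for 4 of the 10 clock genes, with each interval clear of 0 in the classes named. The difference between classes was not tested. Clock was at a log2 ratio of 0.41 (0.10 to 0.73) in ON-CBC-like cells and -0.63 (-0.75 to -0.51) in MG-like cells. Per1 was at 0.17 (0.05 to 0.30) in MG-like cells but at -0.81 (-1.39 to -0.26) in RBC-like cells. The MG-like value of Per1 was -0.043 with cells thinned to 1000 UMIs. Per2 was at 1.49 (1.16 to 1.82) in MG-like cells, 1.03 (0.27 to 1.83) in ON-CBC-like cells and 1.81 (0.93 to 2.74) in EC-like cells, against -1.43 in cluster 6, whose interval came within 0.01 of 0 on 6 and 16 UMIs. Nr1d1 was at 0.48 (0.21 to 0.74) in EC-like cells and -0.061 (-0.12 to -0.01) in MG-like cells.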

How the results depend on the processing

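Each group was 1 library, so no replicate could be left out. No paired analysis was possible because each group had 1 library. In MG-like cells the repressor mean for rd10-vehicle over WT was -0.82 with cells thinned to 1000 UMIs and -0.68 without Ciart, and for rd10-TMB over rd10-vehicle 0.45 and 0.50; for rd10-TMB over WT it was -0.18 without Ciart. The activator mean with a pseudocount of 1 UMI, which brings in Npas2, was 1.29 for rd10-vehicle over WT and 0.43 for rd10-TMB over WT, and in cells with no Lcn2 UMI it was -1.29 for rd10-TMB over rd10-vehicle. In those cells Npas2 was at -2.54, on 4 UMIs in rd10-TMB and 27 in rd10-vehicle, while Arntl was at -0.70 and Clock at -0.63. In EC-like cells the repressor mean for rd10-vehicle over WT was -0.58 at a minimum of 50 UMIs and -0.21 thinned, for rd10-TMB over rd10-vehicle 0.23 thinned, and for rd10-TMB over WT 0.039 thinned and 0.071 with Y-linked WT cells. Their activator mean in endothelial-marked cells, a subset chosen after seeing the data, was 0.78 for rd10-vehicle over WT, above that of the whole cluster given earlier. For rd10-TMB over WT it was -0.34, on Clock alone.

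Calls among the 10 genes in MG-like cells went from 7 to 3 thinned and 3 at 2-fold for rd10-vehicle over WT, from 6 to 3 at 2-fold for rd10-TMB over rd10-vehicle, and from 1 to 2 thinned and 2 with Y-linked WT cells for rd10-TMB over WT. In EC-like cells they went from 4 to 2 at 50 UMIs, 1 thinned and 2 at 2-fold, from 6 to 0 thinned, and from 4 to 2 in cells with a mitochondrial share of at most 10%, 0 thinned, 1 with Y-linked WT cells, 1 in endothelial-marked cells and 2 at 2-fold. Thinning leaves fewer UMIs, which widens every interval. These counts take both directions together. Outside the endothelial-marked cells, the share of all genes called under each alternative was not computed, so the counts are not read against it. Under thinning the ratio of rd10-TMB to rd10-vehicle reversed for Npas2 (0.52) and Per1 (-0.043) in MG-like cells and for activators minus repressors in cluster 6 (-0.25). Per1 in EC-like cells for that pair was -0.68 (-2.07 to 0.56) thinned, against 0.09 (-0.25 to 0.43).

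The activator share without Clock was 2.75%, 7.38% and 3.61% in MG-like cells of WT, rd10-vehicle and rd10-TMB, and 3.93%, 7.62% and 1.38% in EC-like cells. Without Nr1d2 it was 10.9%, 20.9% and 11.9%, and 20.5%, 24.6% and 11.8%. Without Per1 the MG-like share was 20.6% under vehicle and 11.5% under TMB, and the EC-like share 19.9% in WT and 27.2% under vehicle. The library order within each class was the same in every one of these versions. Of 226 values under alternatives for means, counts and shares, 181 were taken as unchanged. For a mean or share this meant a value inside the counting interval of the main one. For a count of calls, which has no such interval, it meant a change of at most 1.5-fold. Of 312 values for single genes or class balances, 289 lay inside the interval of the main value. Taking each MG-like cluster by itself was not run, since 1 cluster carried that name.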

Other observations

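Astrocyte-like cells (cluster 12) were too few for the comparisons, with 20 WT, 88 vehicle and 33 TMB cells, and are described here after their values were seen. Arntl was at 12.3 CPM in WT, 23.4 CPM under vehicle and 5.33 CPM under TMB, on 4, 33 and 3 UMIs, with log2 ratios of 0.93 (-0.57 to 2.88) for rd10-vehicle over WT and -2.14 (-4.49 to -0.47) for rd10-TMB over rd10-vehicle. Clock was at 92.6, 91.7 and 58.6 CPM. Per3 was at 92.6, 41.2 and 53.3 CPM, and Nr1d2 at 154, 70.3 and 81.7 CPM, both lowest in rd10-vehicle. Nr1d1, which had no dip in MG-like cells, was at 333, 175 and 224 CPM here. Ciart had 4, 3 and 9 UMIs. The activator share was 13.1% (9.23 to 17.8) in WT, 26.1% (22.8 to 29.7) under vehicle and 12.3% (8.79 to 16.7) under TMB, and the intervals of the outer libraries did not reach that of rd10-vehicle.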
